A study of Danio rerio with 25 samples.

Results

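The comparison described here sets day 5 (D5) against day 4 (D4) of a course of dexamethasone (DEX), a synthetic glucocorticoid, in zebrafish larvae. It rests on 6 of the 25 RNA-seq libraries of the series: 3 libraries of whole larvae on D5 and 3 on D4, chosen by their day and carrying the letters a, b and c on each day. The study's methods describe the exposure of transgenic Tg(Ola.Sp7:nlsGFP) larvae, in which the promoter of osterix drives a nuclear green fluorescent protein in bone cells, to 10 µM DEX without a break from D3 to D7. Day numbers are ages after fertilization in the methods, but the labels tie the same numbers to the start of DEX. RNA was taken from whole larvae and not from sorted bone cells. The 9 libraries of D3, D6 and D7 entered the same statistical model, and the WT and cdkn1a crispant libraries were not used. No library of the series is labelled as larvae given the vehicle alone. A day of larval development and a further day of exposure therefore cannot be told apart.

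Glucocorticoids bind a receptor that enters the nucleus and changes the transcription of its target genes. In mammals they are known for raising glucose production in the liver, for the breakdown of muscle protein through ubiquitin ligases and the proteasome, for restraining inflammation, and for the loss of bone under long treatment. Autophagy, the delivery of cell contents to the lysosome, is the other main route of protein breakdown in muscle.

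Between 14628715 and 16789885 reads were counted on genes in the D5 libraries, and between 14715318 and 21812411 in the D4 libraries. Values are given in CPM, the reads of a gene divided by all counted reads and set to a common total, after scaling for library composition. Libraries a and b of a day lay close together, with a root mean square difference of 0.454 on D5 and 0.461 on D4 in log2 CPM. Library c stood apart on both days, at 0.871 to 0.914 from a and b on D5 and at 0.806 to 0.899 on D4. The letter was a block in the model, as the comparison was defined, so that D5 was compared with D4 within a letter. The labels do not say that the letters are separate cultures. The p-values thus measure only the spread between the 15 DEX libraries that remains after day and letter are taken out. A steady difference of library c from a and b is not part of that spread. Of 352 genes on 16 lists of tissue markers, 334 were expressed above the filter, among them markers of bone, cartilage, muscle, pancreas, eye, nerve, blood and skin.

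Among the genes higher on D5 than on D4 were the ubiquitin ligase genes FBXO32 and trim63a, the autophagy receptor CALCOCO1, the uncoupling protein UCP1, the growth factor binding protein igfbp1b and the parathyroid hormone pth1b. Among the lower genes were the chaperones CALR and hsp90aa1.1, the sugar enzymes FBP2 and PYGL and the matrix protein VTN. They are grouped by role for description only, after their values were seen and separately for rises and falls. A group thus holds genes of 1 direction only, and genes of a related role may stand in another group. The number of all tested genes with each role was not counted. Most members of the pathway lists did not pass. Of 21750 genes tested, 61 (0.28%) passed an adjusted p of 0.05 in edgeR's quasi-likelihood test, 34 higher on D5 (0.156%) and 27 lower (0.124%). The 34 differed by 0.82 to 5.62 in log2 fold change and the 27 by -3.62 to -0.91, and 54 of the 61 differed by more than 1 in size. The median over all tested genes was 0.0034. D5 and D4 libraries did not overlap for 55 of the 61 genes, against 16% of all tested genes, and the difference had 1 sign in all letters for 60 of the 61. Both counts follow in part from the choice of these genes by a test within letters on the same libraries, and are no separate evidence.

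**Figure D1:**
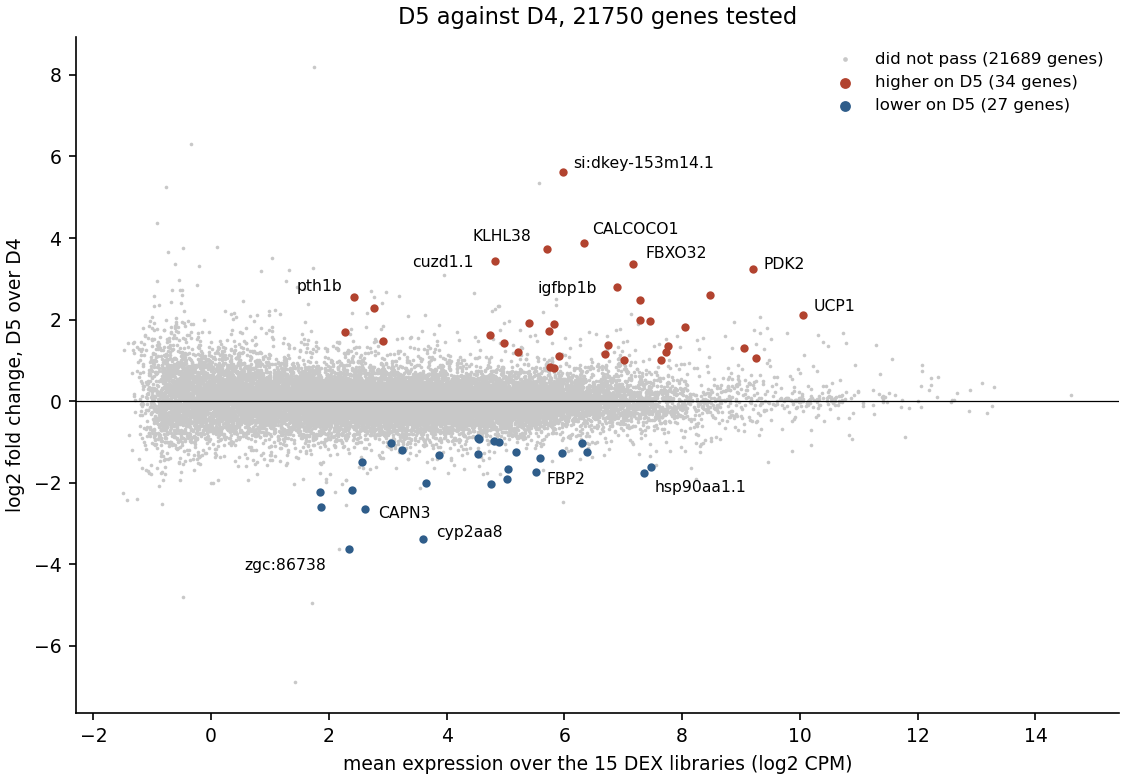
Log2 fold change of D5 over D4 (vertical axis) against mean expression over the 15 DEX libraries in log2 CPM (horizontal axis), 1 point a gene. The 34 genes higher on D5 (red) and the 27 lower (blue) lie among 21689 genes that did not pass (grey), and several grey points at low expression have larger fold changes than the coloured ones.

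The number of calls depended on the letter block and on each library. Without the block, 2 genes passed, both higher on D5, FBXO32 (adjusted p = 0.00316) and CALCOCO1 (adjusted p = 0.036). With 1 library left out, the genes higher and lower on D5 numbered 12 and 3 without D5 a, 14 and 1 without D5 b, 10 and 0 without D5 c, 11 and 8 without D4 a, 6 and 1 without D4 b, and 4 and 0 without D4 c. CALCOCO1, FBXO32 and KLHL38 passed in each of these 6 fits. With the c libraries of all days left out, 288 genes were higher and 223 lower, and 60 of the 61 genes were among them. No gene of the 61 changed sign in any alternative in which it was tested.

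Of the genes that rose, 6 were grouped under protein breakdown. CAPN3 (ENSDARG00000043035), a calpain protease, fell and is described with the largest falls. FBXO32, or atrogin-1, the ubiquitin ligase subunit that marks wasting muscle in mammals, had 53.8, 52.5 and 126 CPM in D5 libraries a, b and c, against 7.04, 9.67 and 5.02 CPM in D4 libraries a, b and c. The lowest D5 library was over every D4 library, and the log2 fold change was 3.36 ± 0.34 (SE), a 10.3-fold rise (adjusted p = 0.00146). trim63a, which encodes MuRF1, the other well-known ubiquitin ligase of muscle wasting, had 105, 114 and 392 CPM on D5, against 22.5, 26.8 and 41.3 CPM on D4. It rose by 2.60 ± 0.31 on the log2 scale (adjusted p = 0.00504), and library c was highest on both days. KLHL38, of the kelch-like family whose members bring substrates to cullin ubiquitin ligases, had 19.0, 30.1 and 89.0 CPM on D5, against 3.47, 2.21 and 3.11 CPM on D4 (log2 fold change 3.72 ± 0.41, adjusted p = 0.00301). The D4 libraries of KLHL38 lay close together and the D5 libraries spread widely, with c at the top.

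PSME4 (ENSDARG00000087911), an activator of the proteasome, had 28, 49.3 and 213 CPM on D5, against 11.5, 9.61 and 19.1 CPM on D4 (log2 fold change 2.48 ± 0.33, adjusted p = 0.0103). NFE2L1, a transcription factor that raises proteasome genes in mammals, had 31.1, 31.9 and 75.1 CPM on D5, against 10.7, 11 and 10.7 CPM on D4 (log2 fold change 1.91 ± 0.34, adjusted p = 0.0344). For both genes each D5 library was above all D4 libraries. MYLIP (ENSDARG00000008859), a ubiquitin ligase for the low-density lipoprotein receptor in mammals, rose less, by 0.84 ± 0.15 (adjusted p = 0.0344). STYXL2, a phosphatase-like protein of muscle, had 30.8, 55.0 and 124 CPM on D5, against 11, 9.87 and 31.8 CPM on D4. Its groups overlapped, since D4 library c exceeded D5 library a, but within each letter D5 was higher (log2 fold change 2.0 ± 0.25, adjusted p = 0.00715).

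On the list of muscle genes, FBXO32 and trim63a were the members that passed, out of 28 tested, and none was lower, where 0.156% of all tested genes were called higher and 0.124% lower. The list's median was 0.09, beside 0.0034 over all tested genes. The fast myosin heavy chain myhz1.1 averaged 8977 ± 7769 CPM on D5 and 6802 ± 6301 CPM on D4 (SD, n = 3 each), and the creatine kinase ckmb 5585 ± 1993 and 4036 ± 2971 CPM. Neither passed (adjusted p = 0.723 and 0.595). The second muscle ring finger gene, trim63b, had a log2 fold change of 0.64 and did not pass either (adjusted p = 0.535). At an unadjusted p below 0.05, 2 members of the muscle list were higher and 3 lower, against 1155 higher and 1396 lower of the 21750 tested. As 0.28% of all tested genes passed, the lack of a called structural gene does not show that these genes were unchanged. In bulk RNA of whole larvae, fewer cells of a type and less RNA per cell cannot be told apart.

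Genes of autophagy and of the brake on protein synthesis made up another 7 of the genes that rose. CALCOCO1, an autophagy receptor for the endoplasmic reticulum in mammals, had 27.6, 34.0 and 83.1 CPM on D5, against 2.57, 2.53 and 3.94 CPM on D4. This was a 14.8-fold rise (log2 fold change 3.88 ± 0.30, adjusted p = 9.51e-05), with the smallest p of all genes tested. map1lc3cl, a relative of the LC3 proteins that coat autophagosomes, had 11.5, 16.7 and 50.5 CPM on D5, against 4.14, 5.97 and 13.9 CPM on D4 (log2 fold change 1.63 ± 0.31, adjusted p = 0.0486). D5 and D4 overlapped for map1lc3cl through D4 library c. ULK2, a kinase that starts autophagosome formation, had 151, 185 and 343 CPM on D5, against 102, 76.1 and 148 CPM on D4 (log2 fold change 1.02 ± 0.18, adjusted p = 0.0371). ATG9A, a membrane protein of the early autophagosome, rose by 0.82 ± 0.16 (adjusted p = 0.0494), the smallest rise among the 34.

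SESN1, a sestrin that restrains mTORC1 and a known p53 target, had 117, 141 and 282 CPM on D5, against 67.8, 66.3 and 86.5 CPM on D4 (log2 fold change 1.22 ± 0.20, adjusted p = 0.0266). All D5 libraries lay above all D4 libraries. Both genes for EIF4EBP3, which binds the cap-binding factor eIF4E and so holds back translation, rose. ENSDARG00000054916 (eif4ebp3) had 81.1, 86.4 and 165 CPM on D5, against 32.9, 35.2 and 56.9 CPM on D4 (log2 fold change 1.38 ± 0.23, adjusted p = 0.0266). ENSDARG00000041607 (EIF4EBP3) had 179.7, 178 and 292 CPM on D5, against 72.2, 98.3 and 82.1 CPM on D4 (log2 fold change 1.35 ± 0.23, adjusted p = 0.0282).

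The list of autophagy and lysosome genes had 26 tested members, of which ULK2 was higher, none was lower and 25 did not pass, beside 0.156% of all tested genes called higher. The list's median was 0.21 and 22 of 26 members had a positive fold change, beside 50.4% of all tested genes. CALCOCO1, map1lc3cl and ATG9A were not on it. ulk1a, with a log2 fold change of 1.04, was just outside the threshold (adjusted p = 0.055), and the receptor SQSTM1, at 1.01, was further from it (adjusted p = 0.19). The lysosomal cathepsin ctsla, with 883 ± 130 CPM on D5 and 965 ± 69.7 CPM on D4 (SD, n = 3 each), did not pass (adjusted p = 0.885). SESN1 was the only called member among 14 genes of the p53 list, beside the same 0.156%, and that list's median was 0.31.

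**Figure D2:**
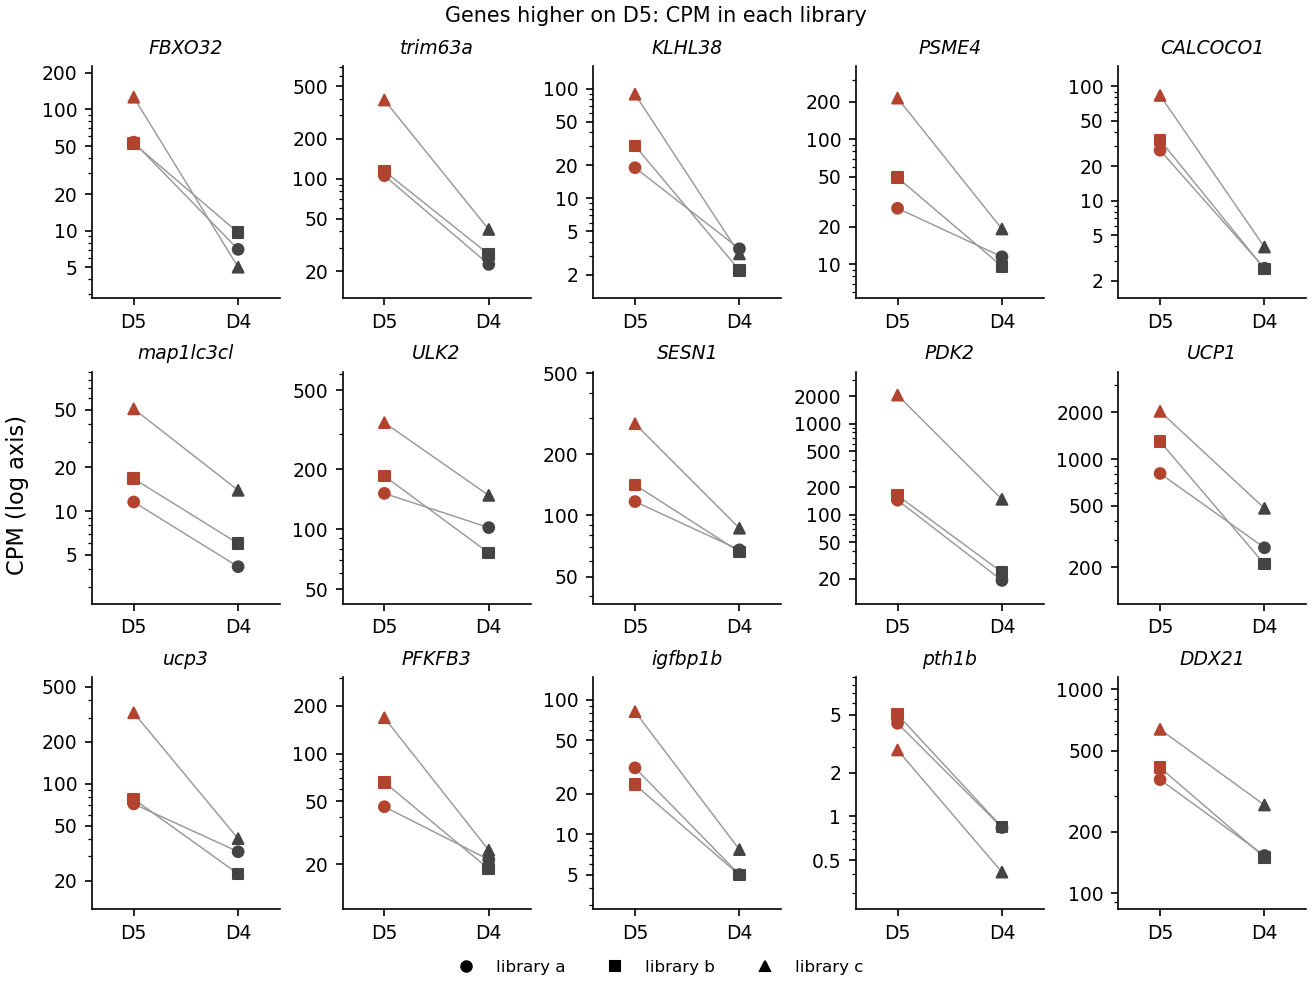
CPM on a log axis in each of the D5 and D4 libraries for 15 genes higher on D5, 1 panel a gene, with lines joining libraries of the same letter. Every line runs higher on D5, and library c (triangles) is the highest D5 library in each panel except pth1b, where it is the lowest.

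Genes of fuel use and mitochondria formed another set of 7. PDK2 (ENSDARG00000059054), a kinase that switches off pyruvate dehydrogenase and so spares glucose, had 145, 163 and 2049 CPM on D5, against 19.2, 23.6 and 148 CPM on D4. The c libraries were far above a and b on both days and made the groups overlap, but the difference within the letters was large in each (log2 fold change 3.25 ± 0.45, adjusted p = 0.0104). UCP1, an uncoupling protein of the inner mitochondrial membrane, had 807, 1296 and 2029 CPM on D5, against 268, 210.1 and 481 CPM on D4 (log2 fold change 2.11 ± 0.35, adjusted p = 0.0266). ucp3, its relative in muscle, had 71.6, 77.5 and 325 CPM on D5, against 32.4, 22.4 and 40.2 CPM on D4 (log2 fold change 1.97 ± 0.36, adjusted p = 0.0415). The D5 libraries of both uncoupling proteins lay above all D4 libraries.

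PFKFB3, which makes the sugar phosphate that activates glycolysis, had 46.2, 66.0 and 168 CPM on D5, against 21.4, 18.7 and 24.5 CPM on D4 (log2 fold change 1.89 ± 0.25, adjusted p = 0.0104). ARG2, the mitochondrial arginase, had 158, 172 and 350.3 CPM on D5, against 59.8, 51.2 and 66.2 CPM on D4 (log2 fold change 1.83 ± 0.25, adjusted p = 0.0104). Neither gene's groups overlapped. SLC25A38 (ENSDARG00000059805), a mitochondrial glycine carrier, rose by 1.70 ± 0.30 (adjusted p = 0.0344) and AMPD3 (ENSDARG00000032469), an AMP deaminase, by 1.11 ± 0.21 (adjusted p = 0.0494), the last with overlapping groups.

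Among the 27 tested genes of fasting and fat oxidation, PDK2 and igfbp1b rose, none fell and 25 did not pass, beside 0.156% of all tested genes called higher and 0.124% lower. The list's median was 0.53. The second PDK2 gene, ENSDARG00000020876, had a log2 fold change of 1.23 and fell just short (adjusted p = 0.0508). PCK1, the key enzyme of glucose production and a classic glucocorticoid target, had 721, 978 and 1234 CPM on D5, against 384, 260.1 and 582 CPM on D4. Its libraries did not overlap, but it did not pass (log2 fold change 1.28 ± 0.29, adjusted p = 0.101). On the hypoxia list of 22, PFKFB3 rose and no other member passed, beside the same 0.156% (median 0.19). LDHA, with 256 ± 7.80 CPM on D5 and 424 ± 62.2 CPM on D4 (SD, n = 3 each), had a log2 fold change of -0.73 (adjusted p = 0.114).

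Genes for a hormone and a hormone-binding protein also rose. igfbp1b, an insulin-like growth factor binding protein that limits the action of the growth factor, had 31.3, 23.4 and 81.7 CPM on D5, against 5.03, 5.00 and 7.72 CPM on D4 (log2 fold change 2.79 ± 0.39, adjusted p = 0.0104). pth1b, a parathyroid hormone, which in vertebrates governs blood calcium, had 4.36, 5.01 and 2.86 CPM on D5, against 0.839, 0.844 and 0.414 CPM on D4 (log2 fold change 2.55 ± 0.36, adjusted p = 0.0104). The groups of both genes stood clear of each other. For pth1b the c library was lowest on both days.

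The nucleolar genes DDX21, an RNA helicase, GTPBP4, a GTPase of large ribosomal subunit assembly, and rsl1d1 rose by 1.31 ± 0.19, 1.07 ± 0.18 and 1.0 ± 0.18 (adjusted p = 0.0124, 0.0282 and 0.0344). DDX21 had 360.2, 412 and 635 CPM on D5, against 152.8, 149.8 and 270.2 CPM on D4, with no overlap. None of 16 ribosomal protein genes passed (median 0.10), where 0.28% of all tested genes did. The other genes of the 34 with a name of their own were cuzd1.1 and LXN. cuzd1.1, a CUB and zona pellucida-like domain protein, had 24.4, 34.8 and 37.0 CPM on D5, against 2.24, 2.47 and 4.76 CPM on D4, a 10.8-fold rise (log2 fold change 3.44 ± 0.47, adjusted p = 0.0104). LXN, an inhibitor of carboxypeptidases, rose by 1.15 ± 0.20 (adjusted p = 0.0344).

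The other 6 genes that rose carry only a clone-based name or an identifier. si:dkey-153m14.1 had the largest fold change (5.62 ± 0.76, adjusted p = 0.0261), with 161, 250.1 and 0 CPM on D5, against 1.01, 8.31 and 0 CPM on D4. It was at 0 in the c library of every day, so this value rests on letters a and b, and it was not steady over the days, with 5.11, 1.97 and 0 CPM on D6. si:ch211-198i6.4, with 1.73, 0.691 and 4.45 CPM on D5, against 0.280, 0.390 and 0.621 CPM on D4, rose by 2.29 ± 0.41 (adjusted p = 0.035). The remaining 4, si:ch1073-464p5.5, ENSDARG00000105643, si:ch73-141c7.1 and si:dkey-201c13.2, rose by 1.21 to 1.72.

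The genes that fell held 9 of the endoplasmic reticulum and the secretory pathway, where new proteins are folded and sent on. CALR, calreticulin, a calcium-binding chaperone of glycoproteins, had 76.8, 64.1 and 40.1 CPM on D5, against 130.1, 142 and 92.1 CPM on D4 (log2 fold change -1.03 ± 0.16, adjusted p = 0.0171). SDF2L1, a partner of the chaperone BiP, had 31.2, 20.1 and 19.0 CPM on D5, against 47.9, 59.8 and 32.8 CPM on D4 (log2 fold change -1.0 ± 0.19, adjusted p = 0.0486). CRELD2, a gene that responds to stress of the endoplasmic reticulum in mammals, had 7.75, 6.33 and 6.64 CPM on D5, against 14.8, 17.5 and 10.7 CPM on D4 (log2 fold change -1.03 ± 0.20, adjusted p = 0.0494). For all 3 the highest D5 library was below the lowest D4 library.

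The genes for calcium-binding reticulocalbins and calumenin fell too. rcn3 had 16.1, 16.5 and 4.38 CPM on D5, against 39.1, 51.1 and 40.6 CPM on D4, the largest fall of the 9 (log2 fold change -2.02 ± 0.31, adjusted p = 0.0171). FKBP10, a prolyl isomerase that assists collagen folding, had 10.4, 10.5 and 5.31 CPM on D5, against 21.5, 24.7 and 17.5 CPM on D4 (log2 fold change -1.32 ± 0.24, adjusted p = 0.043). Both were clearly separated between the days. The others were calub, DNAJB11, a cochaperone of BiP, RCN1, and LMAN1, a cargo receptor on the way to the Golgi, with log2 fold changes of -1.25, -0.97, -0.92 and -0.91.

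Of 23 tested genes on the list of heat shock and the unfolded protein response, hsp90aa1.1, CALR and SDF2L1 fell, none rose and 20 did not pass, beside 0.124% of all tested genes called lower. The list's median was -0.38. hsp90aa1.1, the chaperone that zebrafish muscle uses to fold myosin, had 82.6, 88.5 and 63.9 CPM on D5, against 259.5, 257 and 295 CPM on D4, a 3.39-fold fall with wide separation of the days (log2 fold change -1.76 ± 0.34, adjusted p = 0.0494). ptges3l, a relative of a cochaperone of Hsp90 that is not on the list, fell by 1.21 ± 0.20 on the log2 scale (adjusted p = 0.0266), with 8.52, 6.96 and 6.58 CPM on D5, against 16.8, 19.9 and 14.4 CPM on D4. HSP90B1, the Hsp90 of the endoplasmic reticulum, had 254, 209.8 and 239 CPM on D5, against 510.4, 532 and 453 CPM on D4, and did not pass (log2 fold change -1.10 ± 0.25, adjusted p = 0.0993). PDIA4 was closer to the threshold, at a log2 fold change of -1.19 (adjusted p = 0.051). The inducible hsp70l differed by -0.07 (adjusted p = 0.99).

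Of the genes that fell, 4 were grouped under sugar metabolism. PFKFB3 and PDK2 (ENSDARG00000059054), which also bear on sugar use, rose and are described with fuel use. PCK1 had a log2 fold change of 1.28 and did not pass. FBP2, a fructose bisphosphatase, had 22.3, 32.3 and 34.3 CPM on D5, against 103, 83.4 and 101 CPM on D4 (log2 fold change -1.73 ± 0.24, adjusted p = 0.0104). PYGL, the glycogen phosphorylase known from liver, had 53.5, 64.2 and 50.5 CPM on D5, against 156, 141 and 106 CPM on D4 (log2 fold change -1.25 ± 0.18, adjusted p = 0.0124). PC (ENSDARG00000051939), pyruvate carboxylase, had 34.9, 40.4 and 54.7 CPM on D5, against 84.1, 95.4 and 134 CPM on D4 (log2 fold change -1.27 ± 0.22, adjusted p = 0.0338). None of these groups overlapped. UGDH, which makes the UDP-glucuronate used for glycosaminoglycans of cartilage and skin, fell by 1.66 ± 0.28 on the log2 scale (adjusted p = 0.0266), with 24.4, 20.5 and 12.0 CPM on D5, against 58.9, 73.0 and 45.2 CPM on D4.

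Genes for proteins outside the cell or on its surface also fell. TGM2, a transglutaminase that crosslinks matrix proteins, had 2.95, 3.80 and 6.64 CPM on D5, against 11.7, 10.3 and 39.3 CPM on D4 (log2 fold change -2.01 ± 0.36, adjusted p = 0.0362). mmp11b, a matrix metalloproteinase, had 2.69, 3.34 and 0.664 CPM on D5, against 10.1, 7.86 and 8.34 CPM on D4 (log2 fold change -2.17 ± 0.41, adjusted p = 0.0486). VTN, vitronectin, had 16.1, 13.6 and 11.5 CPM on D5, against 28.2, 36.7 and 34.8 CPM on D4 (log2 fold change -1.29 ± 0.21, adjusted p = 0.0266). The days were separated for each of them. f11r.2, of the junctional adhesion molecule family, fell by 2.22 ± 0.42 on the log2 scale (adjusted p = 0.0486).

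**Figure D3:**
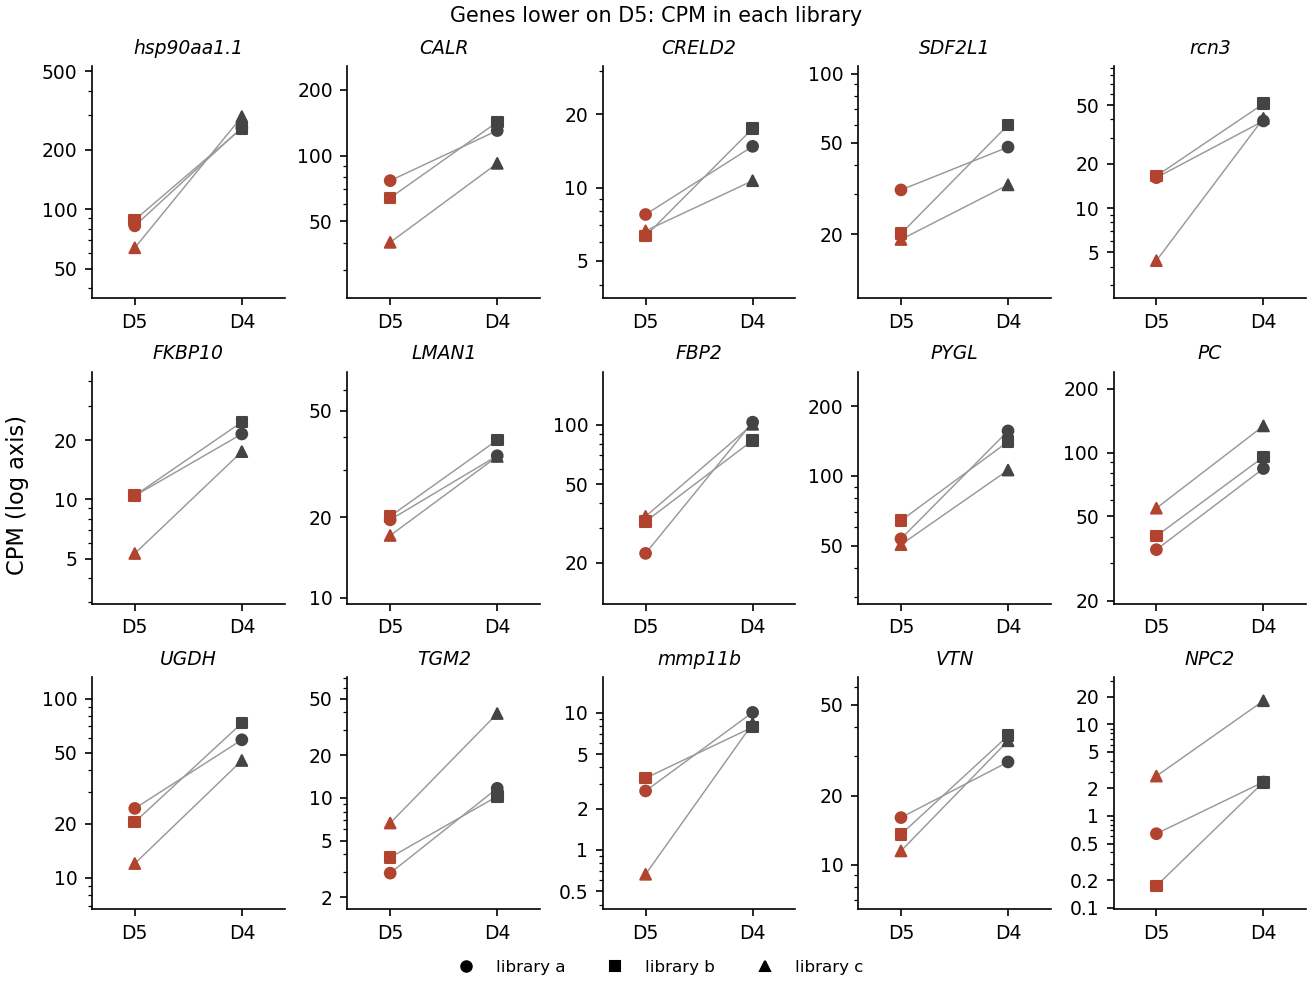
CPM on a log axis in each of the D5 and D4 libraries for 15 genes lower on D5, 1 panel a gene, with lines joining libraries of the same letter. Every line runs lower on D5, and D5 and D4 overlap in the panel of NPC2 only, where library c is above a and b on both days.

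The largest falls were in genes that were low on D5. zgc:86738 had 1.15, 0.921 and 0 CPM on D5, against 6.88, 12.9 and 2.90 CPM on D4 (log2 fold change -3.62 ± 0.55, adjusted p = 0.0171). cyp2aa8, a cytochrome P450, had 1.15, 0.403 and 0.465 CPM on D5, against 6.32, 7.08 and 5.23 CPM on D4 (log2 fold change -3.37 ± 0.58, adjusted p = 0.0326). CAPN3 (ENSDARG00000043035), a calpain protease, had 0.577, 2.13 and 0.930 CPM on D5, against 6.09, 5.06 and 12.0 CPM on D4 (log2 fold change -2.66 ± 0.49, adjusted p = 0.0459). NPC2 (ENSDARG00000096979), a lysosomal cholesterol transfer protein, had 0.641, 0.173 and 2.72 CPM on D5, against 2.35, 2.34 and 18.1 CPM on D4, with overlap of the days (log2 fold change -2.60 ± 0.44, adjusted p = 0.0282). The carboxylesterase ces3, the ankyrin repeat protein ASB15 and the unnamed zgc:123103 and si:dkey-31g6.6 fell by log2 fold changes of -1.40, -1.50, -1.60 and -1.90.

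For 14 of the 61 genes a second identifier carries the same symbol in the same spelling, and none of these 14 others passed. The pair eif4ebp3 and EIF4EBP3, whose symbols differ in case only, is not counted here, and both of its genes passed. The second CALCOCO1 gene, ENSDARG00000036695, had a log2 fold change of 0.83 (adjusted p = 0.123) and the second KLHL38 gene, ENSDARG00000031383, one of 0.84 (adjusted p = 0.305). The second PSME4 gene, ENSDARG00000018742, averaged 77.8 CPM on D5 and 62.5 CPM on D4 (log2 fold change 0.32, adjusted p = 0.533). The second NPC2 gene, ENSDARG00000090912, averaged 79.1 and 87.4 CPM (-0.14, adjusted p = 0.864). That of PC, ENSDARG00000098766, had a log2 fold change of -0.34 (adjusted p = 0.496). That of SLC25A38, ENSDARG00000074533, averaged 30.2 and 26.1 CPM (0.19, adjusted p = 0.848), and that of MYLIP, ENSDARG00000055118, 66.4 and 61.8 CPM (0.10, adjusted p = 0.882). Both were more expressed than the called gene. Those of AMPD3, FKBP10 and VTN had log2 fold changes of 0.37, -0.48 and -0.68 (adjusted p = 0.552, 0.413 and 0.119). The second TGM2 gene, ENSDARG00000074094, had 35.9 ± 4.34 CPM on D5 and 39.0 ± 14.4 CPM on D4 (SD, n = 3 each), with a log2 fold change of -0.06 (adjusted p = 0.956). The second CAPN3 gene, ENSDARG00000041864, had 108 ± 19.1 CPM on D5 and 85.0 ± 31.8 CPM on D4, and its fold change of 0.38 was of the other sign (adjusted p = 0.537). That of the second ASB15 gene, ENSDARG00000045863, was too, at 3.21 (adjusted p = 0.198), but its level was very low, with means of 0.792 CPM on D5 and 0.0704 CPM on D4. The difference between the 2 genes of such a pair was not tested, and reads of near-identical stretches may be shared between them.

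The levels of these genes over all 5 days place the step from D4 to D5 in the course. FBXO32 averaged 4.24, 7.25, 77.5, 258 and 367 CPM on D3, D4, D5, D6 and D7, and CALCOCO1 2.94, 3.01, 48.2, 141 and 207 CPM. For both, the levels of D3 and D4 were low and every later day was higher. PFKFB3 averaged 14.4, 21.6, 93.5, 83.5 and 70.7 CPM over these days and was highest on D5. hsp90aa1.1 averaged 279, 271, 78.3, 76.0 and 110.4 CPM, with close values on D3 and D4, and FBP2 60.3, 95.7, 29.7, 21.7 and 19.8 CPM, with its highest mean on D4. cyp2aa8 averaged 52.6, 6.21, 0.674, 0.245 and 0.214 CPM, and was thus already below its D3 level on D4.

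Of the 34 genes higher on D5, 28 had their highest daily mean on D7, 4 on D6 and 2 on D5. Of the 27 lower genes, 21 had their lowest mean on D7, 6 on D6 and 0 on D5. Their highest mean was on D3 for 22 and on D4 for 5. D7 and D3 share no library with D5 and D4, though the fit shares its estimates of the spread. In that comparison all 34 were higher on D7, where 17.6% of all tested genes were called higher, with a median log2 fold change of 3.30 beside 0.035 over all genes. All 27 were lower on D7, where 18.9% of all tested genes were called lower, with a median of -2.49. Between D7 and D6, 1 of the 34 was called higher, and it was the only gene called higher among the 21750 tested (0.0046%). 0 of the 27 were called lower, where 1 of the 21750 was (0.0046%). The gene called higher was si:ch211-198i6.4, at 26.1 CPM on D7 and 3.98 CPM on D6 (log2 fold change 2.72, adjusted p = 0.0151).

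**Figure D4:**
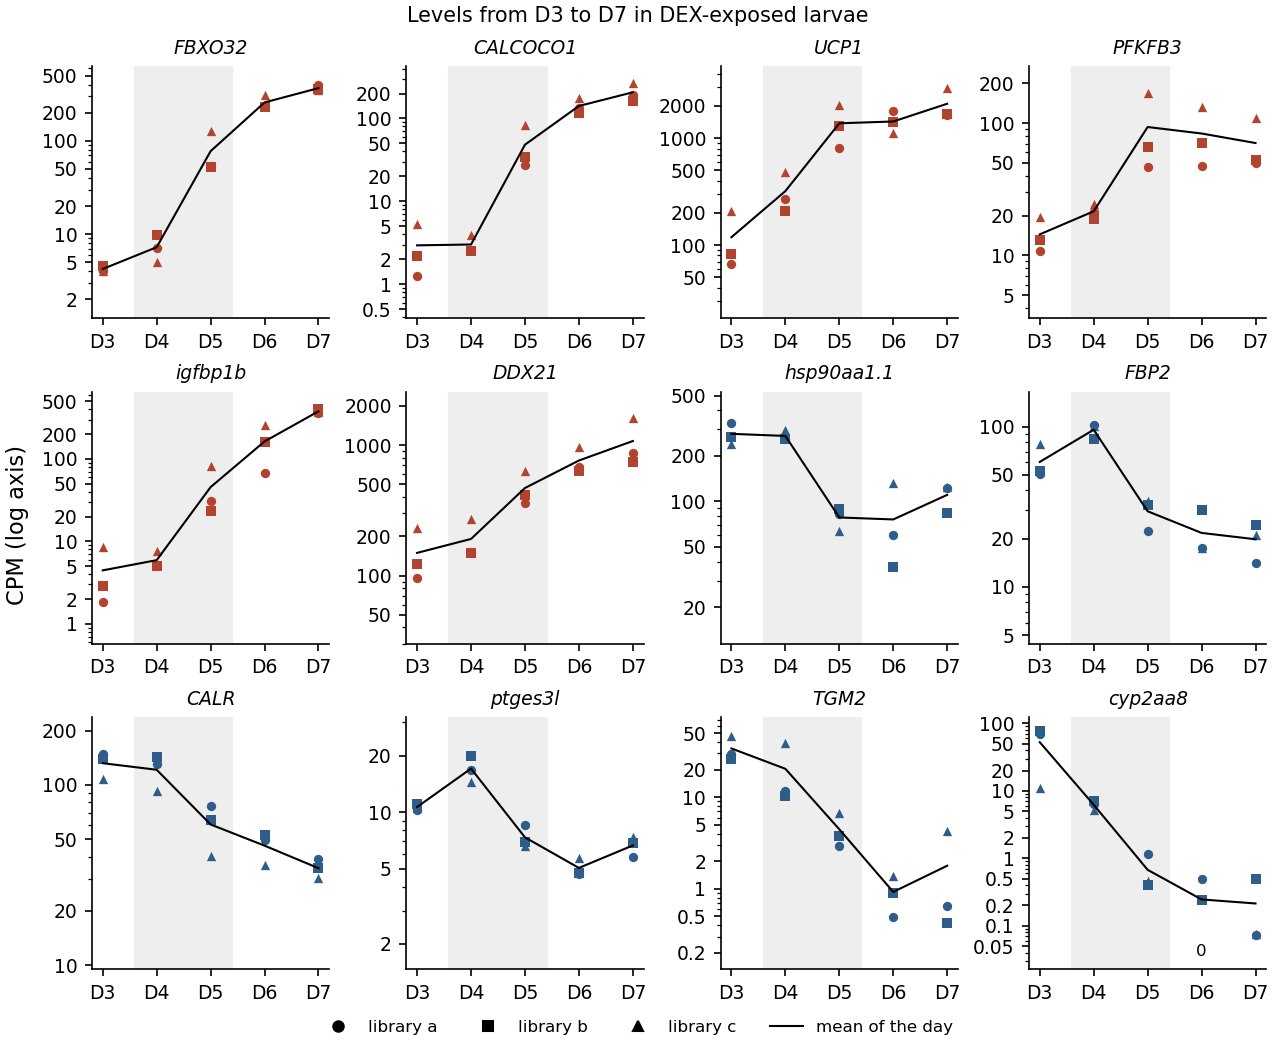
CPM on a log axis from D3 to D7 (horizontal axis) for 6 genes higher on D5 (red) and 6 lower (blue), 1 point a library and the line through the mean of each day, with D4 and D5 shaded. A library at 0 is written as 0 at the foot of its panel. FBXO32, CALCOCO1, igfbp1b and DDX21 have their highest mean on D7, PFKFB3 on D5 through library c, and FBP2 and ptges3l have theirs on D4.

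The list of glucocorticoid response genes had 22 tested members, among them known targets, the receptor gene NR3C1 and the steroid enzymes HSD11B2 and hsd20b2. None passed, where 0.28% of all tested genes did. The median was 0.64, and 20 of the 22 had a positive fold change, beside 50.4% of all tested genes. Without adjustment for the number of genes, 12 had p below 0.05 and were higher and 0 were lower, against 1155 higher and 1396 lower of the 21750. The members nearest to the threshold were KLF9 (log2 fold change 1.14, adjusted p = 0.051), LPIN1 (1.36, adjusted p = 0.055) and CEBPD (1.07, adjusted p = 0.057). FKBP5, a cochaperone of the glucocorticoid receptor, had 594, 643 and 1103 CPM on D5, against 473, 441 and 789 CPM on D4, with overlap (log2 fold change 0.45 ± 0.37, adjusted p = 0.697). It averaged 113 CPM on D3. Whether these larvae differed from untreated ones cannot be read from the 2 days.

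No gene of bone or cartilage passed, where 0.28% of all tested genes did. Lists this short may hold no called gene at that share. Over all tested genes, 50.4% had a positive fold change. Of 23 bone genes tested, 19 had a negative fold change, with a median of -0.50, and the medians of letters a, b and c were -0.40, -0.29 and -1.0. SP7, or osterix, the regulator of osteoblasts, had 5.26, 3.45 and 3.19 CPM on D5, against 7.71, 7.79 and 5.28 CPM on D4, a difference of 1.76-fold without overlap that did not pass (log2 fold change -0.82 ± 0.32, adjusted p = 0.337). SPARC, a matrix protein of bone, had 1619, 1265 and 960.3 CPM on D5, against 1647, 2411 and 2015 CPM on D4 (log2 fold change -0.70 ± 0.35, adjusted p = 0.467). Of 24 cartilage genes, 23 had a negative fold change at a median of -0.91, but the letters differed, with medians of -0.65 in a, -0.07 in b and -1.75 in c. COL2A1 (ENSDARG00000069093), the main collagen of cartilage, had 795, 1047 and 982 CPM on D5, against 1419.5, 935 and 3863 CPM on D4, so that library b ran the other way (log2 fold change -1.07 ± 0.58, adjusted p = 0.514).

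The genes of osteoclasts and macrophages did not pass either (0 of 22, median 0.28), beside 0.28% of all tested genes that did. Of the 22, 17 had a positive fold change, beside 50.4% of all tested genes. The medians of letters a, b and c were 0.715, 0.0658 and 0.235. At an unadjusted p below 0.05, 3 were higher and 0 lower, against 1155 higher and 1396 lower of the 21750 tested. ACP5, at -0.34, had the lowest log2 fold change of the list. CTSK, the collagen-degrading protease of osteoclasts, had 25.3, 23.8 and 27.3 CPM on D5, against 24.4, 27.2 and 25.5 CPM on D4, and ACP5, their acid phosphatase, 3.01, 3.97 and 2.19 CPM on D5, against 4.19, 5.71 and 2.23 CPM on D4. Both overlapped widely. cdkn1a, the cell cycle inhibitor that the study followed, had 11.1, 8.23 and 4.25 CPM on D5, against 18.7, 19.2 and 7.15 CPM on D4. It was lower on D5 in each letter, but the groups overlapped and it did not pass (log2 fold change -0.93 ± 0.51, adjusted p = 0.514). The daily means of cdkn1a were 5.32, 15, 7.86, 8.76 and 5.59 CPM from D3 to D7, with D4 the highest. On D6 it had 4.76, 4.48 and 17.0 CPM, with library c alone far above the others. D4 was thus the highest day in letters a and b, and D6 in letter c.

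MMP9, a matrix metalloproteinase of inflammatory cells and osteoclasts, had 56.0, 8.63 and 105 CPM on D5, against 6.93, 5.84 and 8.23 CPM on D4. Its D5 libraries spread over more than their own difference from D4, and it did not pass (log2 fold change 2.51 ± 0.89, adjusted p = 0.292). On D6 it had 9.73, 19.2 and 537 CPM, with library c alone far above the others. One TIMP2 gene, ENSDARG00000075261, had 145, 22.2 and 25.1 CPM on D5, against 9.34, 14.5 and 11.4 CPM on D4, with library a alone far above the rest (adjusted p = 0.362). The other, ENSDARG00000061226, had 90.3, 81.5 and 124 CPM on D5, against 75.7, 93.4 and 84.5 CPM on D4. Its groups overlapped (log2 fold change 0.20 ± 0.20, adjusted p = 0.761). The symbol does not tell which of them is the timp2a that the study followed. The second COL2A1 gene, ENSDARG00000011407, had 219, 277 and 290.4 CPM on D5, against 371, 238 and 959.8 CPM on D4, with overlap (log2 fold change -0.84 ± 0.52, adjusted p = 0.579). Of the other genes that the study followed, runx2b, spp1, enpp1, SOST, tnfsf11, mmp13a, RELA and JUN had log2 fold changes from -0.19 to 0.87 and adjusted p from 0.708 to 0.957.

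Genes of cell division had negative fold changes throughout without a call, where 0.28% of all tested genes were called. All 21 genes of DNA replication and all 20 of mitosis were below 0, with medians of -0.56 and -0.82, and 10 and 16 of them had an unadjusted p below 0.05. Over all 21750 tested genes 50.4% were above 0, and 1396 were lower at that p. The medians of letters a, b and c were -0.61, -0.44 and -0.68 for replication and -0.80, -0.65 and -1.04 for mitosis. PCNA, the sliding clamp of DNA polymerase, had 229.6, 165 and 151 CPM on D5, against 295, 376 and 246 CPM on D4, without overlap (log2 fold change -0.76 ± 0.26, adjusted p = 0.269). CDC20, an activator of the anaphase-promoting complex, averaged 11.4 CPM on D5 and 23.6 CPM on D4 (log2 fold change -1.05, adjusted p = 0.108).

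The pancreas list had the highest median of all lists, 1.39 over 28 genes, of which 25 were positive and none passed. Of all tested genes, 50.4% were positive and 0.28% passed. The letters differed, with medians of 1.53 in a, 1.8 in b and 0.09 in c. prss1, a trypsin of the exocrine pancreas, had 3015, 3376 and 1759 CPM on D5, against 934, 975 and 1608 CPM on D4 (log2 fold change 1.38 ± 0.82, adjusted p = 0.56), and its difference was wider in a and b than in c. The hormone gene ins differed by 0.14 (adjusted p = 0.93).

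**Figure D5:**
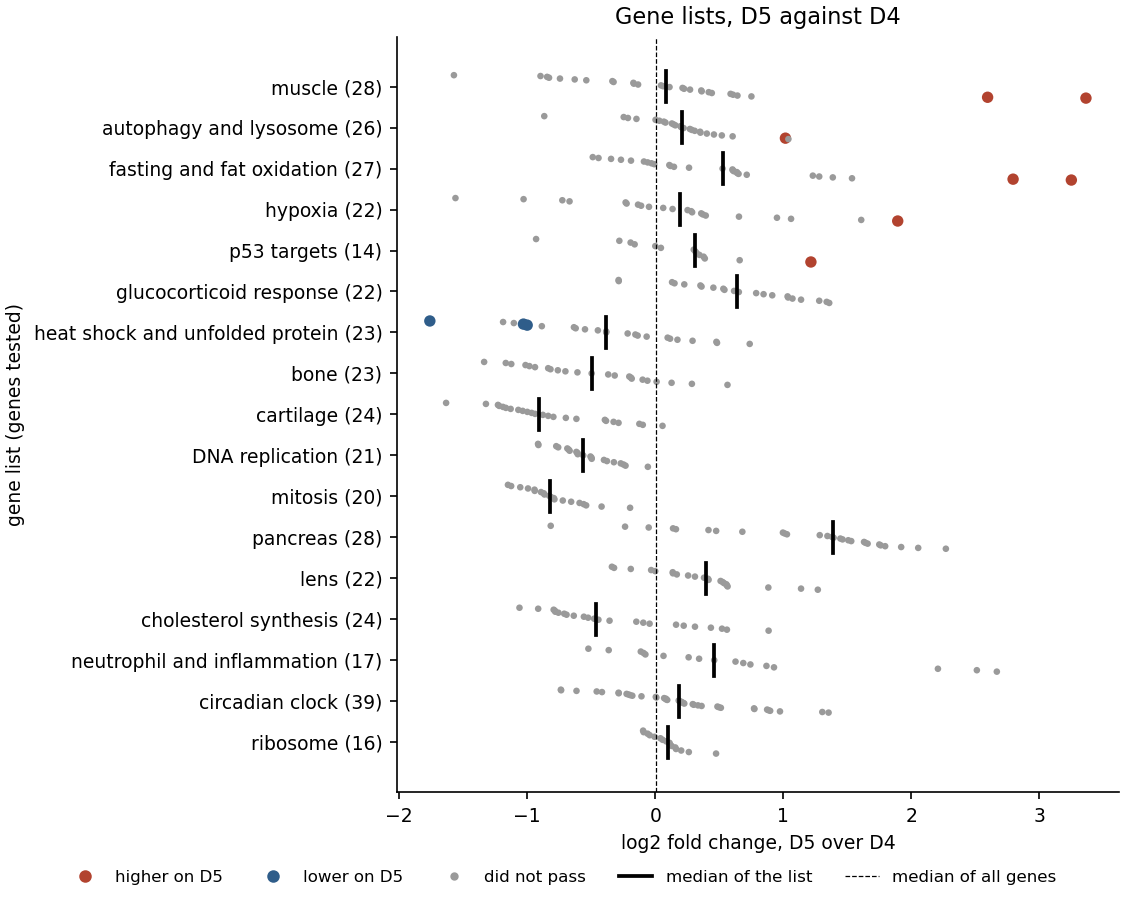
Log2 fold change of D5 over D4 (horizontal axis) for each tested gene of 17 lists (vertical axis, with the number of genes), with the median of a list as a bar and that of all tested genes as a dashed line. Genes that passed are red (higher on D5) or blue (lower), and all genes of the DNA replication and mitosis lists lie left of 0 without passing.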

How the data were processed

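Per the study's methods and the submitters' processing notes, the authors removed adapters (Trim Galore), mapped to the GRCz11 assembly (STAR 2.7.8) and deposited raw counts per gene (HTSeq 0.13.5) for the 15 DEX libraries. The annotation release and the strand setting are not given in the sources used here, so overlapping genes and near-identical copies are uncertain. The letters a, b and c of the columns were read as replicates 1, 2 and 3 of the labels. Counts were filtered with filterByExpr, scaled by TMM and fitted in edgeR 4.0.16 (R 4.3.3, limma 3.58.1) with the quasi-likelihood test on the 5 days and the letter, over all 15 libraries, and p-values were adjusted by Benjamini-Hochberg with a threshold of 0.05. CPM are TMM-scaled, and log2 CPM used a prior count of 2. The SE of a log2 fold change is its size divided by the square root of the F statistic of the quasi-likelihood test. Same-letter libraries deviated together from their day means (r = 0.349 for a, 0.273 for b and 0.749 for c). Crossed pairs of a and b did so more (r = 0.517 for D4 a with D5 b and 0.652 for D4 b with D5 a). Library c had r of -0.672 to -0.497 with a and b of the other day. These values thus set c apart but do not pair a with a or b with b. The letter was kept as a block because the comparison was defined with it. The scripts were tested on simulated data. Symbols came from a name table that matched 29201 of 32520 identifiers, and symbols in capitals are that table's.

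Named genes were the 15 largest called rises and falls with a symbol, 1 sign in all letters and more than 3 counts in a library of each day, every called list member, the 2 most expressed members of a list, and all genes followed by the study. The other called genes, and trim63b, ulk1a, SQSTM1, PDIA4, hsp70l, NR3C1, HSD11B2, hsd20b2, KLF9, LPIN1, CEBPD, CDC20, ins and the second identifiers, were chosen after their values were seen, as was the grouping of called genes by role. The comparison and the lists were chosen with earlier results of these data known. Alternatives were the fit without the block, the 6 libraries alone, DESeq2 1.42.0, other scalings and filters, and left-out libraries. A description of promoters was not made, and the WT and crispant table was not used.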

Additional observations from a re-analysis of the deposited data

How the results depend on the processing

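Against 34 genes higher and 27 lower on D5, the fit without the replicate block called 2 higher and 0 lower, and 1394 genes had an unadjusted p below 0.05. With the 6 D5 and D4 libraries alone, 146 were higher and 131 lower with the block (55 of the 61 among them), and 0 and 0 without it, where 2009 genes had an unadjusted p below 0.05. DESeq2 with the block called 193 and 184, the 61 among them, and the a and b libraries alone gave 288 and 223. With no filter on low counts 45 were higher and 45 lower. At least 10 counts in every library gave 37 and 18, RLE scaling 46 and 24, and upper quartile scaling 35 and 20, each with a larger share of higher calls. Leaving out 1 library gave 4 to 14 higher and 0 to 8 lower genes. The cause of these shifts was not tested. The direction of 50 of the 61 genes was the same in all of these fits, and that of the other 11, which had under 10 counts in some library and were not tested with that filter, in the rest. With 3 libraries a day and library c apart from a and b, the precision of each value is limited, and CRELD2, hsp90aa1.1 and ASB15 passed at an adjusted p of 0.0494, just inside the threshold.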

Other observations

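Other lists held no called gene, where 0.28% of all tested genes passed. Among 15 genes for plasma proteins of the liver, tfa, or transferrin, had 1038, 888 and 502 CPM on D5, against 1915, 1965 and 1584 CPM on D4, without overlap (log2 fold change -1.22 ± 0.29, adjusted p = 0.11 in edgeR's quasi-likelihood test), whereas the retinol carrier RBP4 had a log2 fold change of -0.01 (adjusted p = 0.994). The 24 genes of cholesterol synthesis had a median of -0.46, with 2 higher and 10 lower at an unadjusted p below 0.05, where 1155 of the 21750 tested genes were higher and 1396 lower. Of 22 lens genes, 18 had a positive fold change, beside 50.4% of all tested genes. Their median was 0.40, with letter medians of 0.54, 0.55 and 0.02 in a, b and c. The 39 clock genes had a median of 0.19.

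gch2, an enzyme of pteridine pigment synthesis, had 45.9, 48.5 and 77.9 CPM on D5, against 137, 151 and 155 CPM on D4. The days did not overlap, and the gene did not pass (log2 fold change -1.42 ± 0.50, adjusted p = 0.283). The 23 pigment genes had a median of -0.04.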
